A study of Mus musculus with 8 samples.

Results

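In the E11.5 mouse forelimb, 348 of 11146 whole limb cells carried UMIs of at least 4 of 7 cartilage markers, and these cells are called chondrogenic here. The markers were *Sox9*, *Matn4*, *Col9a3*, *Col9a2*, *Lect1*, *Fxyd3* and *Sema3d*, and a UMI (unique molecular identifier) counts 1 captured transcript. Only cells with at least 3000 UMIs and at most 10% mitochondrial UMIs were considered. The rule found 179 of 5464 cells in the first whole limb library (whole 1) and 169 of 5682 in the second (whole 2), out of 53085 such cells in all 8 libraries. Every comparison below sets these cells against all other cells of the same library. As the cells were chosen by the 7 markers, the levels of those 7 genes are given as a description and were not tested.

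The study profiled cells of C57BL/6J mouse forelimbs with 10x Genomics 3′ droplet libraries, 2 from whole limbs at E11.5 and 6 from sorted tdTomato+ cells between E11.5 and E16.5. According to the methods all embryos carried a *Hic1* CreERT2 allele and a Cre-dependent tdTomato reporter at *Rosa26*, and the labels of the sorted libraries give both as homozygous. The *Hic1* promoter drives CreERT2, so the reporter labels only cells with *Hic1* activity when tamoxifen acted, together with what they later gave rise to. The dams of all libraries received 7.5 mg of tamoxifen at embryonic day 10. For the whole limb libraries the labels name cells with and without the reporter, and the methods describe a capture of all cells that lacked a set of blood and endothelial surface proteins. Forelimbs of several embryos were pooled at E11.5, so a library is not 1 animal, and nothing says that whole 1 and whole 2 came from separate litters. A p-value over them measures only the spread between these libraries.

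Limb cartilage forms when mesenchymal cells condense and begin to make cartilage matrix. The transcription factor SOX9 is needed for this step, and SOX5 and SOX6 act with it on the genes of collagen types II, IX and XI and of other matrix proteins. In the mouse forelimb at this stage the first condensations are forming in the proximal core, while the cells at the distal tip stay undifferentiated and express *Hoxd13*, *Lhx2* and *Msx1*.

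The 2 whole limb libraries held 51674380 and 51505671 UMIs. A chondrogenic cell had fewer UMIs than other cells, with a median of 5671 against 8960 in whole 1 and 5562 against 8690 in whole 2. The median number of genes detected was 2542 against 3202 and 2462 against 3107, but after every cell had been thinned at random to 3000 UMIs it was 1639 against 1605 and 1621 against 1581. The mitochondrial share was alike, at medians of 2.57% and 2.39% against 2.39% and 2.22%. Whole 1 and whole 2 shared 43 cell barcodes, none of them chondrogenic in both. The reporter was low in both kinds of cells, at 5.59 and 8.50 CPM (UMIs per 1000000 UMIs of the summed cells) in chondrogenic cells and 3.84 and 4.12 in the others. In the sorted E11.5 library it was at 468 CPM in the cells that pass the rule.

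Promoter sequences of the marker genes are shown because these genes chose the cells. Of the 7 markers, 4 had 1 start site each in a RefSeq table of the GRCm38.p6 build, and the 250 bases before that start are printed 5′ to 3′ on the strand of the gene. Capitals mark 3 motifs searched on both strands, namely the SOX core motif (ACAAAG or ACAATG), the GC box (GGGCGG) and the TATA box (TATAAA). *Col9a2* (a chain of type IX collagen, chr4:121039316-121039565, plus strand) held 2 GC boxes. *Sema3d* (a secreted guidance protein, chr5:12382916-12383165, plus strand) held 2 SOX core motifs, 1 on each strand. *Lect1* (chondromodulin, named Cnmd in the table, chr14:79662184-79662433, minus strand) and *Fxyd3* (a small membrane protein that regulates the sodium pump, chr7:31076698-31076947, minus strand) held none of the 3.
Col9a2: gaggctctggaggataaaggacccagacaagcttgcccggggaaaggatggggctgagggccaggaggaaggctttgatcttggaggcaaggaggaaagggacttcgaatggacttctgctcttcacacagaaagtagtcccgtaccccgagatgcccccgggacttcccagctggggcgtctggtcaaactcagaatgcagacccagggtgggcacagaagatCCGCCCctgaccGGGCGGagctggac
Sema3d: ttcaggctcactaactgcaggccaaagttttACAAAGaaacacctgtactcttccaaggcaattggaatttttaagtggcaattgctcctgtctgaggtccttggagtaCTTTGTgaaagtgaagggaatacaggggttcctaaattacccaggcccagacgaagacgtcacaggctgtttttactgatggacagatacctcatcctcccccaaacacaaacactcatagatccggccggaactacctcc
Lect1: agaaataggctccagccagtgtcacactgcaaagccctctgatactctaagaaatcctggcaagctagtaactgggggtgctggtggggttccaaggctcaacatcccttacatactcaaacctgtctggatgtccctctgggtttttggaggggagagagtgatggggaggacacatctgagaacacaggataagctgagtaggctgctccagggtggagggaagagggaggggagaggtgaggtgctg
Fxyd3: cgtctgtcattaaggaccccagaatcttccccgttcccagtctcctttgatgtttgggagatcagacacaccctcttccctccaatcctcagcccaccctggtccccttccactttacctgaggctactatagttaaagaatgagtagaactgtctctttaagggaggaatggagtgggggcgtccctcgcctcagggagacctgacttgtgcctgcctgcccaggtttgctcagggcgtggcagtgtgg
Over all 32851 windows of this length in the table, 25.2% held a SOX core motif, 32.7% a GC box and 12.4% a TATA box. The matches describe these letters only.

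The rule took 3.28% of the cells of whole 1 (exact binomial 95% interval 2.82% to 3.78%) and 2.97% of whole 2 (2.55% to 3.45%), and the intervals overlap. These intervals, like the Poisson intervals of levels below, cover counting error only. With every cell thinned to 3000 UMIs the shares were 1.54% (1.23% to 1.90%) and 1.32% (1.04% to 1.65%). From 1 marker upward, cells became rarer with each further marker. In whole 1 there were 460 cells with 2 markers, 198 with 3, 97 with 4, 58 with 5, 20 with 6 and 4 with all 7, and in whole 2 there were 601, 204, 101, 47, 21 and 0. No gap separated cells with 3 markers from cells with 4. Just outside the threshold, cells with 3 markers had 319.8 and 332 CPM of *Col2a1*, and just inside it, cells with 4 had 487 and 503 CPM.

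**Figure D1:**
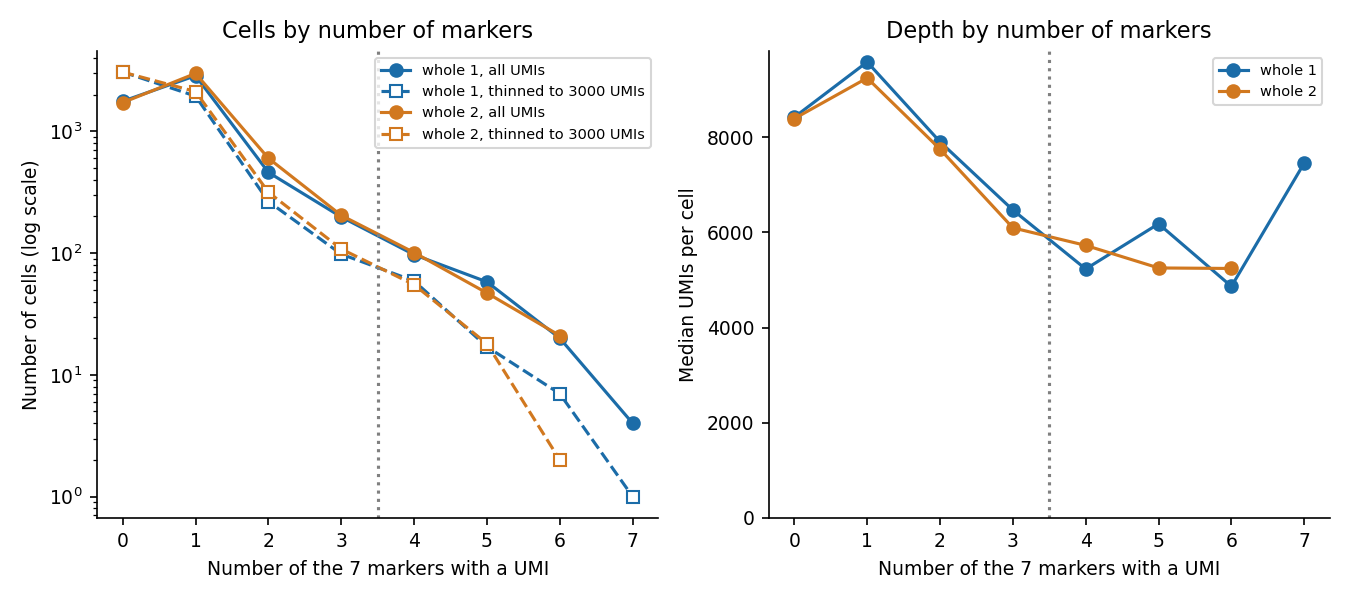
Number of whole limb cells (left, log scale) and median UMIs per cell (right) by how many of the 7 markers had a UMI, with filled circles for all UMIs and open squares for cells thinned to 3000 UMIs. The dotted line is the threshold of the rule, and cells with 4 to 6 markers had medians between 4865.5 and 6181 UMIs while cells with 1 marker had medians of 9583 and 9246.

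Among the markers, *Sox9* was the least selective and *Lect1* and *Matn4* were among the most. *Sox9* was at 707 and 751 CPM in chondrogenic cells of whole 1 and whole 2 and at 209 and 228 CPM in the others, and with thinning 39.0% and 40.8% of the other cells still had a UMI of it. *Matn4*, which encodes a cartilage matrilin, was at 131 and 157 CPM against 2.42 and 2.87. *Lect1* was at 197 and 204 CPM against 3.94 and 3.62. These values follow in part from the rule, since a marker counted toward its own selection.

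With the marker itself left out of the choice, its level was taken in cells that had a UMI of at least 3 of the other 6. These levels are a description, since the 7 markers were chosen with results of these cells known. *Matn4* was at 66.4 CPM in 333 such cells of whole 1 and at 75.5 CPM in 328 of whole 2, which was 26.8 and 25.8 times the rest. *Lect1* was 26.3 and 27.7 times the rest, *Col9a3* 19.6 and 14 times, *Col9a2* 19.1 and 14.8 times, *Sema3d* 15.7 and 13.7 times and *Fxyd3* 15.0 and 12.4 times. *Sox9* was 3.21 and 3.11 times the rest. *Fxyd3*, the least often detected marker, had a UMI in 56 of 179 and 53 of 169 chondrogenic cells.

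The cells used many combinations of markers. There were 48 combinations among the 348 cells, and the most frequent, *Sox9* with *Col9a3*, *Col9a2* and *Sema3d*, held 40 cells, 21 in whole 1 and 19 in whole 2. The next was *Sox9* with *Col9a3*, *Col9a2* and *Lect1*, with 12 and 15 cells. *Sox9* was detected in 172 of 179 and 165 of 169 cells.

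All other genes were tested on UMIs summed per library over chondrogenic and over other cells, with library as a block, by the quasi-likelihood test of edgeR with Benjamini-Hochberg adjustment at 0.05. The genes tested numbered 13610, of which 3384 (24.9%) passed, 1370 (10.1%) higher and 2014 (14.8%) lower in chondrogenic cells. The counts of each gene group are to be read against these shares. The median log2 fold change over all genes tested was -0.04 after TMM scaling (which centres the bulk of genes) and 0.07 on library totals, the scale of the CPM printed here, and on library totals 3195 genes passed, 1880 higher and 1315 lower. The 4 sums left 1 residual degree of freedom, so the very small p-values rest on a spread shared across genes. Fold changes are log2, and the value after ± is a standard error (SE) worked back from the test statistic. It rests on the same shared spread. The other cells were also matched to the chondrogenic cells on UMIs, or, in a setting chosen after the data had been seen, limited to mesenchymal cells with no UMI of *Hoxa13*, *Hoxd12*, *Hoxd13*, *Lhx2* and *Lmo2* (1751 and 1895 cells, called other cells without distal gene UMIs). As the cells were chosen by their own UMIs, the test says how far the cells so chosen differed in both libraries, not that they are a separate type.

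The label was set beside 12 cartilage genes outside the rule, of which 9 were higher, 2 did not pass and 1 was not tested. The list was made with earlier results of these data known, so it describes the label and is no test of it. *Col2a1*, *Col9a1*, *Col11a1*, *Col11a2*, *Acan*, *Sox5*, *Sox6*, *Matn1* and *Cytl1* were higher. *Hapln1*, a link protein that holds aggrecan to hyaluronan, was at 0.799 and 0.944 CPM against 2.88 and 3.09 and did not pass (adjusted p = 0.110, edgeR), *Matn3* did not pass either (adjusted p = 0.668, edgeR), and *Snorc* had no UMI in any chondrogenic cell and was not tested.

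All 5 tested cartilage collagens were higher, with a median log2 fold change of 2.54. *Col2a1*, the main fibrillar collagen of cartilage (ENSMUSG00000022483, chromosome 15, from 97975602 to 98004695 on the minus strand in GRCm38), was at 530.4 CPM in chondrogenic cells of whole 1 and 574 in whole 2, against 50.1 and 56.3 CPM in the other cells. The groups were far apart in both libraries (log2 fold change 3.27 ± 0.065 SE, adjusted p too small for edgeR to write). *Col9a1*, the type IX chain that the rule did not use, was at 530.4 and 542 CPM against 91.1 and 97.0 (2.40 ± 0.062, adjusted p = 1.91e-305). *Col11a1*, whose product sits in the core of cartilage fibrils, was at 226 and 277 CPM against 39.3 and 40.4 (2.54 ± 0.088, adjusted p = 9.49e-173). *Col11a2* was rarer but more confined, at 24.0 and 17.0 CPM against 0.779 and 1.07 (4.37 ± 0.39). *Col27a1*, a fibrillar collagen of cartilage, was the least changed of them (1.88 ± 0.13). *Col10a1*, the collagen of hypertrophic chondrocytes, had no UMI in chondrogenic cells of either library.

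The log2 fold change of *Col2a1* was 2.40 against other cells matched on UMIs and 2.28 against those without distal gene UMIs, that of *Col11a2* was 3.41 and 3.34, and all 5 collagens were higher in both settings (median 2.09 and 2.06). Not only sums but single cells carried *Col2a1*. It was detected in 167 of 179 and 158 of 169 chondrogenic cells, with a median of 2 UMIs and a maximum of 7 and 6 per cell after thinning. With every cell thinned to 3000 UMIs, 78.2% (71.4% to 84.0%) and 76.3% (69.2% to 82.5%) of chondrogenic cells had a UMI, against 14.1% and 16.1% of other cells. Unthinned, these shares were 93.3% and 93.5% against 28.0% and 29.2%. Among cells with at least 3 myogenic markers, which should lack the gene, 7.22% of 277 and 8.50% of 247 had a UMI at the same depth, and among the few cells with at least 3 epithelial markers it was 26.3% of 19 and 26.1% of 23. At this depth *Vcan* was found in 91.1% and 95.3% of chondrogenic cells against 16.2% and 21.5% of myogenic cells, and *Sfrp2* in 67.6% and 77.5% against 6.50% and 3.64%. *Sox5* was found in 56.4% and 51.5% against 2.17% and 1.21%, *Wwp2* in 46.9% and 46.7% against 2.89% and 2.02%, and *Sox6* in 42.5% and 42.0% against 3.25% and 3.24%. Each of these shares was far above the myogenic one in both libraries.

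**Figure D2:**
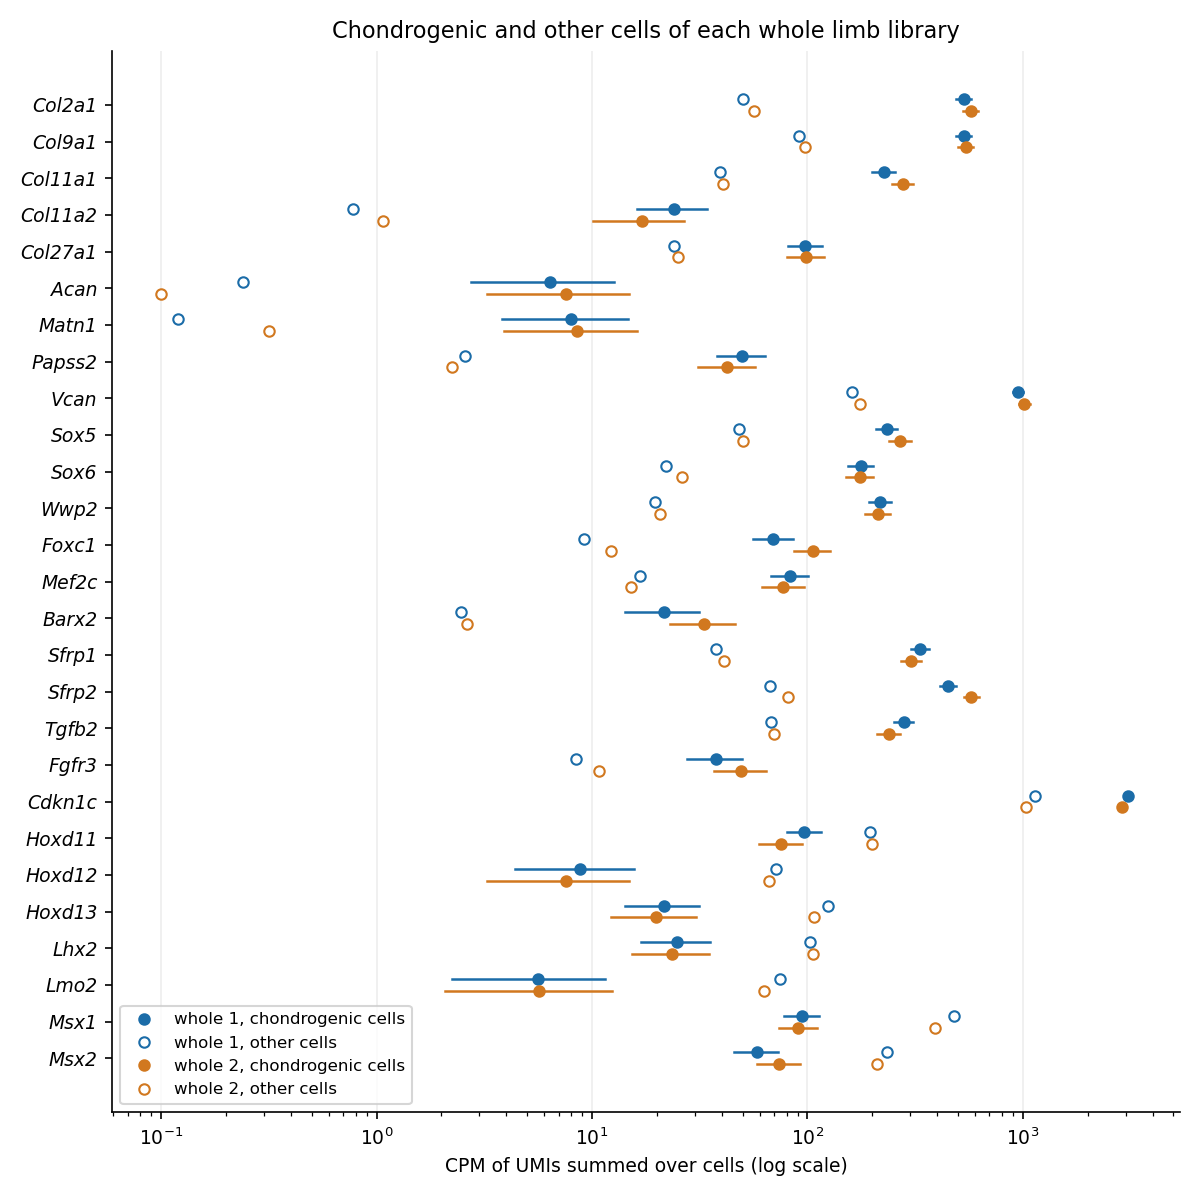
Levels of 27 genes in CPM of summed UMIs (log scale) in chondrogenic cells (filled, with exact Poisson 95% intervals) and other cells (open) of whole 1 and whole 2. Matrix and SOX genes sit to the right in chondrogenic cells and the distal genes from *Hoxd11* to *Msx2* to the left, with both libraries close together.

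Of 16 tested genes of cartilage matrix and its sulfation, 9 were higher and none lower, and 7 did not pass (median log2 fold change 2.14). *Vcan*, the large proteoglycan of condensing mesenchyme, was at 949 and 1015 CPM against 160.2 and 175 (2.44 ± 0.051, adjusted p too small for edgeR to write). *Acan*, the proteoglycan of mature cartilage, was far rarer, with a UMI in 8 of 179 and 7 of 169 cells (2.79% and 2.37% after thinning, and no myogenic cell). Its level was 6.39 and 7.56 CPM against 0.240 and 0.0995 (5.19 ± 0.78, adjusted p = 6.86e-10). *Matn1*, another matrilin, was likewise detected in 8 and 8 cells (7.99 and 8.50 CPM against 0.120 and 0.318). In the other cells both *Acan* and *Matn1* were too low for the filter on low counts. They were tested only through their chondrogenic sums, so neither could have been called lower. Genes of sulfate uptake and transfer were higher too. Without distal gene UMIs *Vcan* was at 1.74, *Acan* at 3.71 and *Matn1* at 3.51. *Papss2*, which makes the activated sulfate for proteoglycans, was at 49.5 and 42.5 CPM against 2.58 and 2.23 (4.15 ± 0.25, adjusted p = 1.41e-60). The sulfate transporter *Slc26a2* (1.37 ± 0.24) and the chondroitin sulfotransferases *Chst11* (2.34 ± 0.32) and *Chst3* (1.99 ± 0.47) rose less. *Snorc*, *Ucma*, *Comp* and *Chad*, genes of later cartilage, were too low to be tested.

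Of 19 tested transcription factors and cofactors of chondrogenesis, 9 were higher, 2 lower and 8 did not pass (median 0.84). *Wwp2*, a ubiquitin ligase gene that hosts a cartilage microRNA and is a known SOX9 target, had the largest rise of the genes at 50 CPM or more, at 218 and 213 CPM against 19.6 and 20.6 (3.31 ± 0.10, adjusted p = 2.39e-215). *Sox5* was at 233 and 270.1 CPM against 48.2 and 50.1 (2.24 ± 0.085, adjusted p = 1.23e-146). *Sox6* was at 177 and 175 CPM against 22 and 26.1 (2.77 ± 0.11, adjusted p = 2.25e-140). Both partners of SOX9 were thus several times higher in chondrogenic cells of each library. *Foxc1*, a forkhead factor, differed more between the libraries, at 69.5 CPM in whole 1 and 106 in whole 2 against 9.21 and 12.3 (2.90 ± 0.15). *Mef2c* (2.22 ± 0.14), *Barx2* (3.29 ± 0.30), *Runx2* (1.29 ± 0.22), *Shox2* (0.84 ± 0.054) and *Trps1* (0.68 ± 0.078) were also higher. Against other cells without distal gene UMIs 7 of 18 factors were higher, and *Runx2* (0.29, adjusted p = 0.390, edgeR) and *Shox2* (0.11, adjusted p = 0.140) did not pass, while *Wwp2* (2.68), *Sox6* (2.03), *Foxc1* (1.85) and *Barx2* (2.51) stayed above by less. *Pax1* was lower, at 5.59 and 4.72 CPM against 30.7 and 37.5 (-2.81 ± 0.30), as was *Arid5b* (-0.66 ± 0.10). *Gli3* and *Prrx1*, general limb mesenchyme factors, had log2 fold changes of -0.10 ± 0.11 and -0.035 ± 0.050 and did not pass.

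At equal depth *Col2a1* and *Sox6* were higher with each further marker, with no step at the threshold. In cells thinned to 3000 UMIs, *Col2a1* in whole 1 went from 31.8 CPM in cells with no marker through 75 with 1, 345 with 2 and 544 with 3 to 734 with 4 or more. In whole 2 the levels were 38.5, 91.8, 319.6, 574 and 764 CPM. *Sox6* went from 16.4 CPM with no marker to 294 CPM with 4 or more in whole 1, and from 19.8 to 249 CPM in whole 2. The distal genes were already low in cells with 2 markers. *Col2a1* also changed between 1 and 2 markers, from 75 to 345 CPM in whole 1 and from 91.8 to 319.6 CPM in whole 2. *Hoxd13* was at 104, 131, 20.1 and 10.2 CPM in cells of whole 1 with 0, 1, 2 and 3 markers, and at 89.6, 112, 15.8 and 9.26 CPM in those of whole 2. The group with 4 or more markers held 84 and 75 thinned cells, and its levels rest on few UMIs for the low genes.

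**Figure D3:**
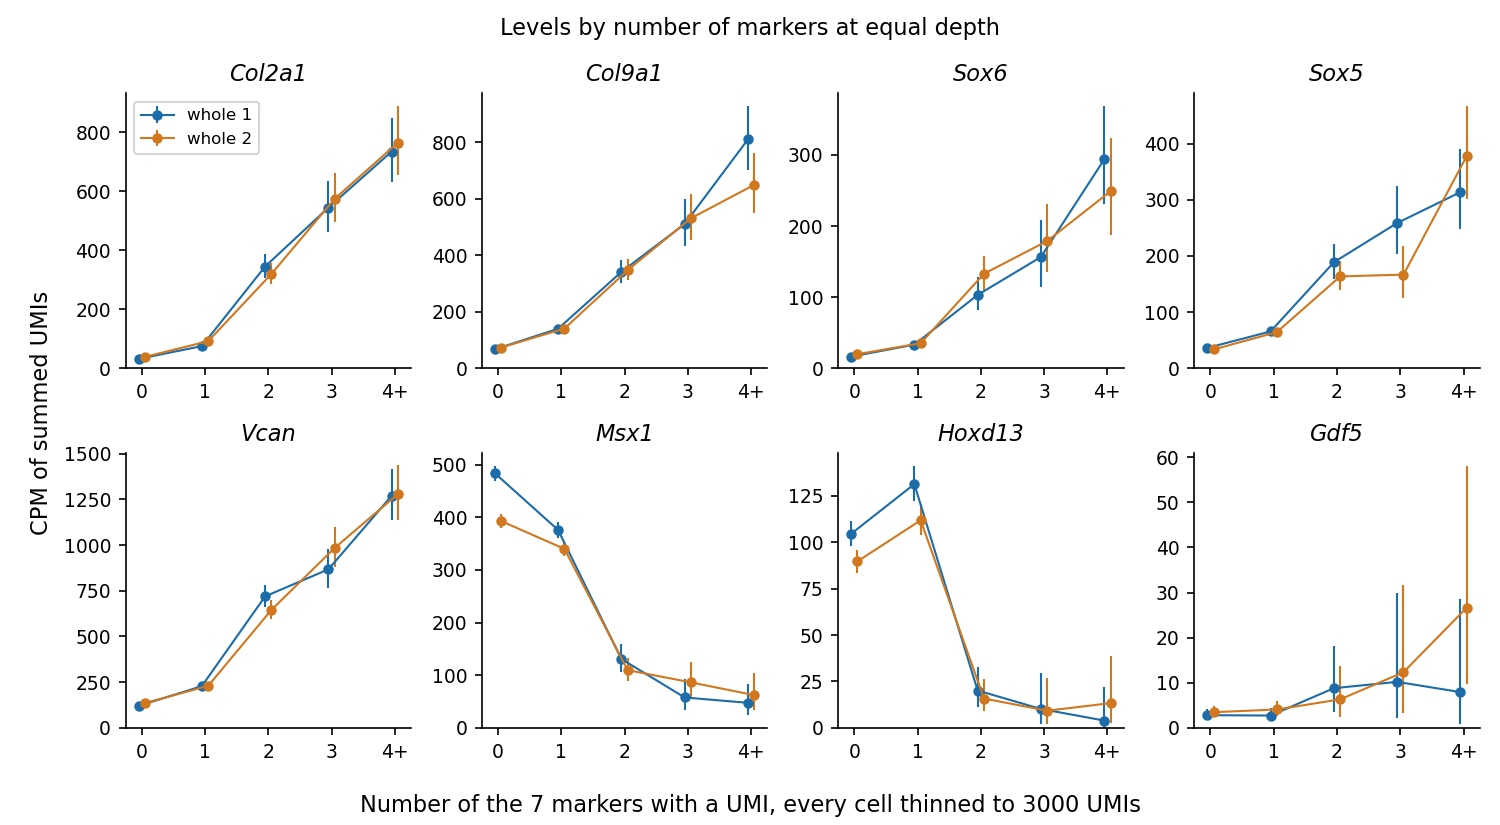
Levels in CPM of 8 genes outside the rule in whole limb cells thinned to 3000 UMIs, by the number of the 7 markers detected, with exact Poisson 95% intervals that cover counting error only. The matrix and SOX genes rise from cells with no marker to cells with 4 or more, *Hoxd13* and *Msx1* fall between 1 and 2 markers, and the intervals of *Gdf5* are wide.

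Genes of cell adhesion and early condensation matrix changed less, with 6 of 15 higher, 1 lower and 8 not past the threshold (median 0.26). *Cdh2* (N-cadherin), an adhesion molecule of condensing mesenchyme, was at 130.2 and 172 CPM against 56.6 and 59.6 (1.25 ± 0.10). *Ncam1*, the other adhesion molecule often named with it, was at 25.6 and 35.9 CPM against 31.1 and 28.8 and did not pass (adjusted p = 0.784, edgeR). *Thbs1* (1.41 ± 0.16), *Gpc6* (1.32 ± 0.083), *Gpc3* (0.86 ± 0.040), *Fbln2* (0.63 ± 0.14) and *Fn1* (0.43 ± 0.084) were higher, and *Fbln1* was lower (-0.79 ± 0.093). *Fn1* did not pass against other cells matched on UMIs (0.22, adjusted p = 0.0796, edgeR), and neither *Fn1* (0.061, adjusted p = 0.717) nor *Fbln2* (0.34, adjusted p = 0.0798) passed without distal gene UMIs. *Tnc* had only 1.60 and 0 CPM in chondrogenic cells.

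Genes of hypertrophy and bone were scarce. Of 11 tested, 2 were higher, 2 lower and 7 did not pass (median -0.36). *Pthlh* had no UMI in chondrogenic cells, and its level in the other cells was below the floor of the chondrogenic sums. With its fold change set to 0 the median was -0.35. *Ihh*, the hedgehog ligand of prehypertrophic cartilage, was detected in 0 of 179 and 1 of 169 chondrogenic cells, and 0 of 179 cells allows a share of up to 2.04% in whole 1 (exact binomial interval, for cells with a UMI). *Ibsp* and *Mmp13* had no UMI in any cell of either library. *Sp7* was at 3.20 and 4.72 CPM against 1.14 and 0.916 and passed (adjusted p = 0.0417, edgeR), but not with DESeq2 (adjusted p = 0.259) or without distal gene UMIs (adjusted p = 0.155). *Spp1* (osteopontin) was at 31.2 and 9.44 CPM against 3.02 and 3.64, with the libraries apart. *Pth1r*, the receptor of parathyroid hormone-related protein, was lower (-1.08 ± 0.19), and so was *Col1a1* (-0.74 ± 0.13).

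Of 11 genes of the future joint, 5 were higher, 1 lower and 5 did not pass (median 1.13). With DESeq2 4 were higher and none lower, as *Gdf5* and *Osr1* did not pass there. *Enpp2* (autotaxin) was at 75.9 and 72.7 CPM against 13.1 and 14.6 (2.32 ± 0.15, adjusted p = 6.27e-51). *Osr2* was at 109 and 113 CPM against 37.0 and 34.8 (1.51 ± 0.12), but its difference was 0.59 against other cells matched on UMIs and 0.39 against those without distal gene UMIs, where *Enpp2* was at 1.72. *Gdf5*, the growth factor that marks the joint interzone, was detected in 9 of 179 and 9 of 169 cells (1.68% and 3.55% after thinning, against 0% and 0.405% of myogenic cells), at 8.79 and 12.3 CPM against 3.68 and 3.36 (1.45 ± 0.38, adjusted p = 0.00120, edgeR), and when the other cells were matched on UMIs it did not pass (adjusted p = 0.115). *Dcx* and *Erg* were higher as well, *Osr1* was lower, and *Gdf6*, *Wnt4*, *Wnt9a*, *Wnt16* and *Barx1* did not pass. Among 15 tested genes of tendon and connective tissue none was higher and 5 were lower (median -0.46), but with DESeq2 none of them passed and without distal gene UMIs 9 of 14 were lower (median -0.85). *Scx*, the tendon factor that early cartilage and tendon progenitors share, was at 60.7 and 57.6 CPM against 45.6 and 43.9 and did not pass (adjusted p = 0.112), but against the other cells without distal gene UMIs it was lower (-0.65, adjusted p = 3.43e-06, edgeR).

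Distal identity genes were lower almost throughout, with 13 of 14 lower and none higher (median log2 fold change -2.28, or -2.27 with *Hoxa13*, at 0, put at its bound from a floor of 3 UMIs). *Hoxd13*, the Hox gene of the future hand, was at 21.6 and 19.8 CPM against 125 and 108 (-2.60 ± 0.16, adjusted p = 2.04e-59). *Hoxa13* had no UMI in any of the 348 cells, against 14.4 and 14.2 CPM in the others, so that it was at least 6.00-fold lower in whole 1 and at least 5.01-fold lower in whole 2, from a floor of 3 UMIs per library. *Hoxd12* was at 8.79 and 7.56 CPM against 71.6 and 66.5 (-3.19 ± 0.22). *Msx1*, a homeobox gene of the progenitors at the tip, was at 94.3 and 90.7 CPM against 479 and 391 (-2.35 ± 0.085, adjusted p = 9.45e-161). *Lhx2* (-2.22 ± 0.15), *Lmo2* (-3.73 ± 0.25) and *Msx2* (-1.88 ± 0.10) were lower too. Against other cells chosen to lack UMIs of 5 distal genes, 5 of the 9 remaining genes that could be tested were lower and none higher (median -0.91), *Msx1* was at -1.02, and *Tfap2a* (adjusted p = 0.868, edgeR), *Tfap2b* (adjusted p = 0.906) and *Tfap2c* (adjusted p = 0.174) did not pass. *Hand2*, a gene of the posterior limb, was at 95.1 and 79.3 CPM against 88.5 and 82.9 and did not pass (adjusted p = 0.670). A UMI of *Hoxd13* was found in 10 of 179 and 15 of 169 chondrogenic cells, and after thinning in 2.79% and 4.73%, close to the 3.97% and 4.05% of myogenic cells, so that these UMIs cannot be told from background. All 4 tested Hox genes of the zeugopod (the forearm) were lower by less, from *Hoxd11* (-1.30 ± 0.10) and *Hoxa11* (-0.99 ± 0.20) to *Hoxa10* (-0.56 ± 0.076) and *Hoxd10* (-0.52 ± 0.12). Against other cells without distal gene UMIs 2 of the 4 were lower, with *Hoxd11* at -0.43, while *Hoxd10* (-0.079, adjusted p = 0.786, edgeR) and *Hoxa11* (-0.56, adjusted p = 0.0553) did not pass. Of 8 anterior genes 4 were lower and none higher (median -0.87), while on library totals 3 were lower and 1 higher and with DESeq2 2 were lower. Without distal gene UMIs 6 of the 8 were lower (median -1.43), among them *Irx3* (-1.59, adjusted p = 1.87e-22, edgeR) and *Irx5* (-1.31, adjusted p = 3.87e-09).

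Proximal genes were higher, with 7 of 10 up, 2 down and 1 not past the threshold (median 0.60), but this depended on the cells compared. *Meis2*, a homeobox gene of the proximal limb, was at 199.7 CPM in whole 1 and 145 in whole 2 against 95.8 and 114 (0.63 ± 0.085), and *Meis1* was at 61.5 and 53.8 CPM against 29.5 and 32.5 (0.79 ± 0.15). *Tbx15* (1.32 ± 0.10) and *Tbx18* (1.04 ± 0.082) were higher by more. When the other cells were limited to those without distal gene UMIs, 3 of the 10 were higher and 4 lower. *Meis2* then lay below the other cells (log2 fold change -0.46, adjusted p = 1.15e-07), *Meis1* did not pass (-0.25, adjusted p = 0.229), *Tbx18* was at 0.22 (adjusted p = 0.0294) and *Tbx15* stayed above (0.66, adjusted p = 8.85e-10). With other cells matched on UMIs, 3 were higher and 1 lower.

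**Figure D4:**
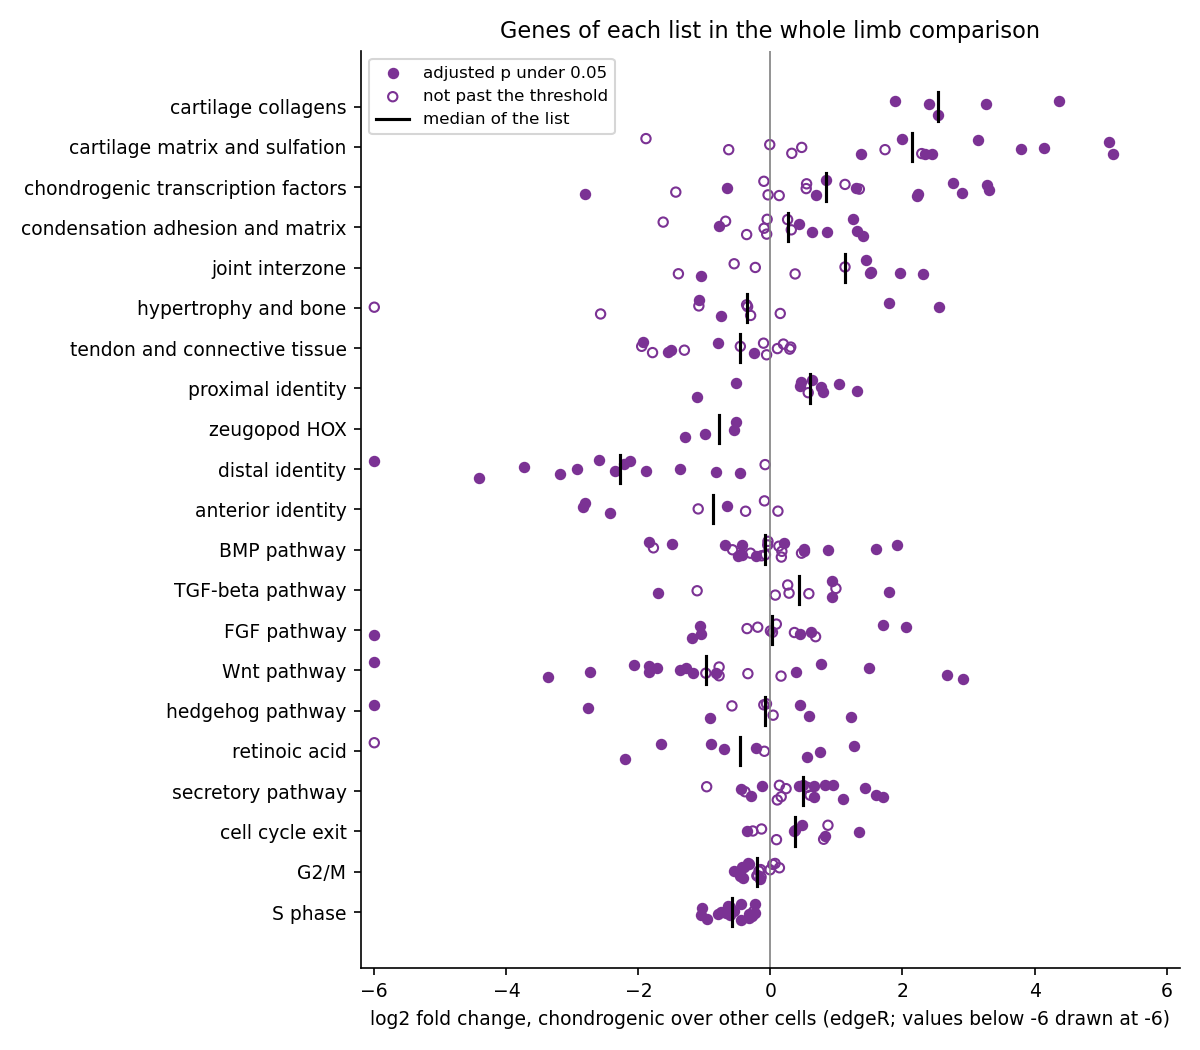
log2 fold change (edgeR, chondrogenic over other cells) of each tested gene in 21 lists, filled where the adjusted p was under 0.05, with a bar at the median of each list. Cartilage collagens and matrix genes lie to the right and distal genes and S phase genes to the left of 0, while signalling lists lie on both sides, and genes drawn at -6 had no UMI in chondrogenic cells.

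The signalling lists were mixed. In the Wnt list 5 of 21 genes were higher, 11 lower and 5 did not pass (median -0.98, or -0.83 with *Notum*, at 0, put at its bound). The secreted inhibitors split, with *Sfrp1*, *Sfrp2*, *Frzb* and *Dkk3* higher and *Dkk1*, *Dkk2*, *Wif1* and *Notum* lower. *Sfrp1* was at 333 and 303 CPM against 37.8 and 40.8 (2.91 ± 0.082, adjusted p = 1.11e-263), and *Sfrp2* was at 451 and 575 CPM against 66.7 and 81.5 (2.68 ± 0.065). By contrast *Dkk1*, which blocks Wnt coreceptors, was at 7.19 and 1.89 CPM against 32.9 and 24.8 (-2.73 ± 0.32). Of the targets and effectors of the canonical pathway, 5 were lower, namely *Axin2* (16 and 10.4 CPM against 46.3 and 42.3, -1.84 ± 0.22), *Nkd1* (-1.71 ± 0.14), *Nkd2* (-2.07 ± 0.19), *Lef1* (-1.28 ± 0.13) and *Tcf7* (-1.84 ± 0.33). *Tcf7l2* was higher (0.77 ± 0.066), and *Sp5* and *Lgr5* did not pass. Of the ligands and agonists, *Wnt5a* (-0.83 ± 0.093) and *Rspo3* (-1.37 ± 0.18) were lower. Against other cells without distal gene UMIs *Wnt5a* was at 0.20 (adjusted p = 0.202, edgeR), and *Sfrp1* (1.97), *Sfrp2* (1.83), *Dkk1* (-1.73), *Nkd2* (-1.35) and *Tcf7* (-1.05) differed by less.

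In the BMP list 6 of 25 were higher, 8 lower and 11 did not pass (median -0.08), and without distal gene UMIs 5 were higher and 5 lower. *Bambi*, 1 of the 8, was at -0.10 against matched cells (adjusted p = 0.597, edgeR) and turned to 0.70 without distal gene UMIs (adjusted p = 6.46e-11). The ligands *Bmp2* (16 and 20.8 CPM against 46.9 and 47.4, -1.48 ± 0.20) and *Bmp7* (-1.85 ± 0.27) were lower, while *Bmp4* was at 25.6 and 29.3 CPM against 26.6 and 25.3 (adjusted p = 0.925). Among receptors *Bmpr1b* was at 26.4 and 26.4 CPM against 13.1 and 13.5 (0.88 ± 0.21), and *Bmpr1a* and *Bmpr2* did not pass. Of the antagonists *Chrdl1* (1.92 ± 0.20), *Fst* (1.60 ± 0.14) and *Nog* (0.51 ± 0.17) were higher and *Grem1* lower (-0.68 ± 0.20). *Grem1* did not pass against other cells matched on UMIs (-0.33, adjusted p = 0.354, edgeR) or those without distal gene UMIs (0.071, adjusted p = 0.891). The targets *Id1* (-0.22 ± 0.037), *Id2* (-0.43 ± 0.040) and *Id3* (-0.43 ± 0.036) were lower by small amounts, and *Id4* was higher (0.51 ± 0.083). Against matched cells *Id1* did not pass (adjusted p = 0.257, edgeR), and without distal gene UMIs *Id4* did not (0.11, adjusted p = 0.438), while *Bmp2* was at -0.65, *Chrdl1* at 1.32 and *Nog* at 1.19 there. With DESeq2 *Bmpr1b*, *Nog* and *Grem1* did not pass, nor did *Frzb* and *Dkk3* of the Wnt list.

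In the FGF list 4 of 15 genes were higher, 4 lower and 7 did not pass (median 0.03), with 3 of 4 receptors among the higher genes and the 3 ligands among the lower. With DESeq2 3 genes of the list were higher and none lower. *Fgfr3*, which restrains the growth of cartilage, was at 37.5 and 49.1 CPM against 8.45 and 10.7 (2.06 ± 0.19), *Fgfr2* at 63.9 and 83.1 CPM against 19.0 and 22.5 (1.71 ± 0.15), and *Fgfr1* was changed least (0.45 ± 0.075). *Fgf10* (-1.05 ± 0.31) and *Fgf18* (-1.19 ± 0.32) were lower, and *Fgf8*, a ligand of the ectodermal ridge, had no UMI in chondrogenic cells against 2.44 and 3.38 CPM in the others. From the floor of 3 UMIs per library *Fgf8* was only at least 1.02-fold and 1.19-fold lower. Against the other cells without distal gene UMIs *Fgf10* was at -0.10 (adjusted p = 0.913, edgeR) and *Fgfr1* at 0.13 (adjusted p = 0.235). In the TGF-beta list 3 of 10 were higher and 1 lower (median 0.43), led by the ligand *Tgfb2* (279.6 and 239 CPM against 68.0 and 70.2, 1.80 ± 0.080, or 1.01 without distal gene UMIs). With DESeq2 2 genes of this list were higher and none lower. *Tgfb3* did not pass there or against matched cells (adjusted p = 0.0983, edgeR). In the hedgehog list 3 of 10 were higher and 3 lower (median -0.08), and the target *Ptch1* was at 53.5 and 56.7 CPM against 53.1 and 52.9 (adjusted p = 0.827). Of the lower genes, *Shh* had no UMI in chondrogenic cells against 3.32 and 3.38 CPM, and passed the filter on low counts only through the other cells. From the floor it was only at least 1.38-fold and 1.19-fold lower. The hedgehog coreceptor *Boc* was higher (1.22 ± 0.17) and *Gas1* lower (-0.92 ± 0.061), and with DESeq2, as against matched cells, 1 gene of the list was higher and 1 lower. Of 10 retinoic acid genes 3 were higher and 5 lower (median -0.47). On library totals 3 were lower, and with DESeq2 2 were higher and 2 lower. *Aldh1a3* had no UMI in chondrogenic cells, and its level in the other cells was below the floor of the chondrogenic sums. With its fold change set to 0 the median was -0.16. *Cyp26b1*, which degrades retinoic acid, was at 82.3 CPM in whole 1 and 139 in whole 2 against 64.0 and 72.9 (0.56 ± 0.11), the receptor *Rarg* was higher (0.76 ± 0.093), and the binding protein *Crabp1* was lower (-2.20 ± 0.13).

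Replication genes were lower and the direction of mitotic genes depended on which other cells were compared. All but 1 of 18 S phase genes were lower (median log2 fold change -0.59), and *Rrm2*, which supplies deoxynucleotides, was at 239 and 264 CPM against 500.0 and 447 (-1.03 ± 0.065). With other cells matched on UMIs 8 of the 18 were lower and none higher, and *Rrm2* was at -0.61. Of 18 G2/M genes 9 were lower and none higher (median -0.20), but against other cells matched on UMIs 10 were higher and none lower. With every cell thinned to 3000 UMIs before the sums 10 were lower and none higher, and with the rule applied to thinned cells 15 were lower and none higher. Of thinned chondrogenic cells 44.7% and 41.4% had a UMI of at least 3 G2/M genes, against 73.8% and 72.7% of other cells. No such share was taken in matched cells. Without distal gene UMIs 3 of the G2/M genes were higher and 1 lower. *Cdkn1c*, which encodes the cell cycle inhibitor p57, was at 3085 and 2882 CPM against 1137 and 1039 (1.34 ± 0.036, adjusted p = 1.51e-280), and against matched cells it stayed above (1.01, adjusted p = 3.50e-104). It was 1 of 5 higher genes in a list of 11 of cell cycle exit and the D cyclins, in which *Ccnd1* and *Ccnd2* were also higher and *Ccnd3* lower (median 0.37). *Ccnd3* did not pass against matched cells (adjusted p = 0.0796, edgeR) or without distal gene UMIs (adjusted p = 0.186). The median UMIs of matched cells were 5661 and 5529, close to those of the chondrogenic cells.

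Genes of secretion and collagen processing were higher in 10 of 21 cases and lower in 3 (median 0.50). *Creb3l2*, a regulator of the secretory pathway in cartilage, was at 139.8 and 119.9 CPM against 35.7 and 38.2 (1.71 ± 0.11). The COPII coat genes *Sec23a* (0.66 ± 0.12) and *Sec24d* (1.43 ± 0.27), *Kdelr3* and the collagen hydroxylase genes *P4ha1*, *P4ha2*, *P4ha3*, *Plod1*, *Plod2* and *Plod3* were higher, and the chaperone genes *Calr* (-0.45 ± 0.056), *Hsp90b1* (-0.30 ± 0.047) and *Serpinh1* (-0.13 ± 0.043) were lower by small amounts, 2 of them also on library totals. Without distal gene UMIs 7 of 20 were higher and 3 lower (median 0.16), and with DESeq2 6 of 21 were higher. *P4ha3* passed neither against matched cells (adjusted p = 0.104, edgeR) nor without distal gene UMIs (adjusted p = 0.410), and the same held for *Plod1* (adjusted p = 0.0602 and 0.0768), while *Sec23a* did not pass in the latter (adjusted p = 0.0953). Immediate early genes, which dissociation of tissue can induce, were higher in 6 of 9 cases and lower in 1 (median 0.71), among them *Fos* (672 and 742 CPM against 238 and 254, 1.41 ± 0.054) and *Egr1* (1.35 ± 0.075, or 0.70 without distal gene UMIs). The part of handling in this difference was not tested.

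Outside the lists, 2 genes stood among the 12 with the largest rise at 50 CPM or more in both libraries. *Pmp22*, known as a myelin gene, was at 137 and 141 CPM against 19.8 and 21.3 (2.65 ± 0.12, adjusted p = 6.58e-107). The matrix gene *Sned1* was at 64.7 and 76.5 CPM against 9.55 and 10.9 (2.67 ± 0.16). The rest of the 12 were *Wwp2*, *Col2a1*, *Sfrp1*, *Foxc1*, *Sox6*, *Sfrp2*, *Col11a1*, *Vcan*, *Col9a1* and *Enpp2*. Among the 12 with the largest fall were *Lmo2*, *Hoxd12*, *Hoxd13*, *Pmaip1*, *Msx1*, *Lhx2*, *Crabp1*, *Nkd2*, *Msx2*, *Tmem132c* and *Slc25a33*. *Pmaip1*, which encodes the apoptosis protein NOXA, was at 23.2 CPM in whole 1 and 41.6 in whole 2 against 194 and 144 (-2.54 ± 0.13). *Pmaip1* and *Slc25a33* did not pass against the other cells without distal gene UMIs.

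Summed markers of myogenic, endothelial, erythroid and immune cells were lower in chondrogenic cells of both libraries. Those of epithelial and of glial and neural cells were higher. The 11 myogenic markers summed to 43.1 and 14.2 CPM against 119.7 and 96.3, with 6 of 11 tested lower (3 with DESeq2) and *Pax7* and *Tnnt2* at 0. The 10 endothelial markers summed to 16 and 16.1 CPM against 33.1 and 37.3, with 3 of 9 tested lower (none with DESeq2) and *Tie1*, *Cldn5* and *Podxl* at 0. The 9 erythroid markers summed to 5.59 and 7.56 CPM against 336 and 279, with 6 of 8 tested lower (4 with DESeq2), and *Hbb-bh1*, at 0, was at least 27.7-fold and 20.2-fold lower. The 9 immune markers summed to 3.99 and 3.78 CPM against 7.77 and 8.76, with 7 of the 9 at 0 in chondrogenic cells. The 11 epithelial markers summed to 33.5 and 37.8 CPM against 28.0 and 26.6, with *Krt5*, *Krt14*, *Krt15*, *Cdh1*, *Trp63* and *Wnt3* at 0 and *Krt18* higher (0.92 ± 0.26, but adjusted p = 0.271 against matched cells in edgeR). The 9 glial and neural markers summed to 39.1 and 38.7 CPM against 22.8 and 23.6, with *Foxd3* and *Tubb3* at 0 and *Erbb3* at 20.8 and 21.7 CPM against 3.54 and 3.88 (2.41 ± 0.30). UMIs of 3 or more markers of another type were found in 5 chondrogenic cells of whole 1 and 1 of whole 2. Without such cells in either group, 3310 genes passed.

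A last comparison took the sorted tdTomato+ library of the same day. It asked whether chondrogenic cells of whole limbs differed from the other cells in the same way as sorted cells that pass the rule. The rule took 238 of 3165 sorted E11.5 cells, and depth differed there, with medians of 9514 UMIs in these cells and 8963 in the others. Where sorted cells are called chondrogenic below, the name rests on the rule alone. Of the other sorted cells 29.5% had a UMI of *Col9a2*, against 5.54% and 6.29% in whole limbs. The paper reports from imaging that the primary cartilage elements received no tdTomato+ cells at E12.5 and E13.5. It also reports progenitors of chondrocytes among sorted cells from E12.5, by RNA and chromatin. In later fetal forelimbs it shows tdTomato+ chondrocytes in parts of the developing bones. The difference of the within-library contrasts (sorted minus whole limb) was tested in edgeR as an interaction, with 1 sorted library that is assumed to vary like the whole limb libraries. Of 14597 genes tested, 1084 (7.43%) passed. With the rule applied to thinned cells, which left 49 sorted cells and 84 and 75 whole limb cells, 305 passed, and DESeq2 called 125. *Col2a1* was at 574 CPM in the sorted cells that pass the rule, close to the whole limb values, but at 159 CPM in the other sorted cells. Its contrast was therefore smaller there (difference -1.44 ± 0.092). *Sox5* and *Sox6* had differences of -0.27 ± 0.13 and -0.27 ± 0.14 and did not pass. *Shox2* was higher than in the other cells in whole limbs but at 495 against 599 CPM in the sorted library (difference -1.13 ± 0.082, adjusted p = 9.56e-40). *Meis2* likewise was at 42.2 against 88.6 CPM (difference -1.72 ± 0.17). In whole limbs the rise of both genes depended on the cells compared. Without distal gene UMIs *Meis2* was lower there (-0.46, adjusted p = 1.15e-07, edgeR) and *Shox2* did not pass (0.11, adjusted p = 0.140). Against matched cells *Shox2* stayed above (0.52) and *Meis2* did not pass (0.16, adjusted p = 0.240, edgeR). The interaction was taken against all other cells only.

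The 6 genes at 50 CPM or more with the most negative difference were *Gsc*, *Aldh1a2*, *Igfbp5*, *Col23a1*, *Tshz2* and *Fst*. *Gsc*, a homeobox gene, was at 30.4 and 32.1 CPM against 14.1 and 12.6 in whole limbs and at 17.4 against 110.5 CPM in the sorted library (difference -3.79 ± 0.30, adjusted p = 2.21e-33). *Igfbp5*, which binds insulin-like growth factors, was at 188 and 156 CPM against 31.3 and 35.1 in whole limbs and at 110.0 against 125 CPM in the sorted library (difference -2.48 ± 0.14). The most positive differences were those of *Lmo2*, *Hoxd12*, *Epha5*, *Lmo1*, *Bambi* and *Slc25a33*, of which only *Epha5* passed both with the rule applied to thinned cells and with DESeq2. With the thinned rule *Lmo2* turned to -5.82 (adjusted p = 0.981, edgeR). *Epha5* was at 13.6 and 15.1 CPM against 20 and 23.5 in whole limbs and at 65.3 against 28.1 CPM in the sorted library (difference 1.91 ± 0.27, adjusted p = 4.57e-10). In the sorted library the distal gene *Hoxd13* was at 3.65 against 7.89 CPM and *Msx1* at 10.1 against 40.0 CPM.

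**Figure D5:**
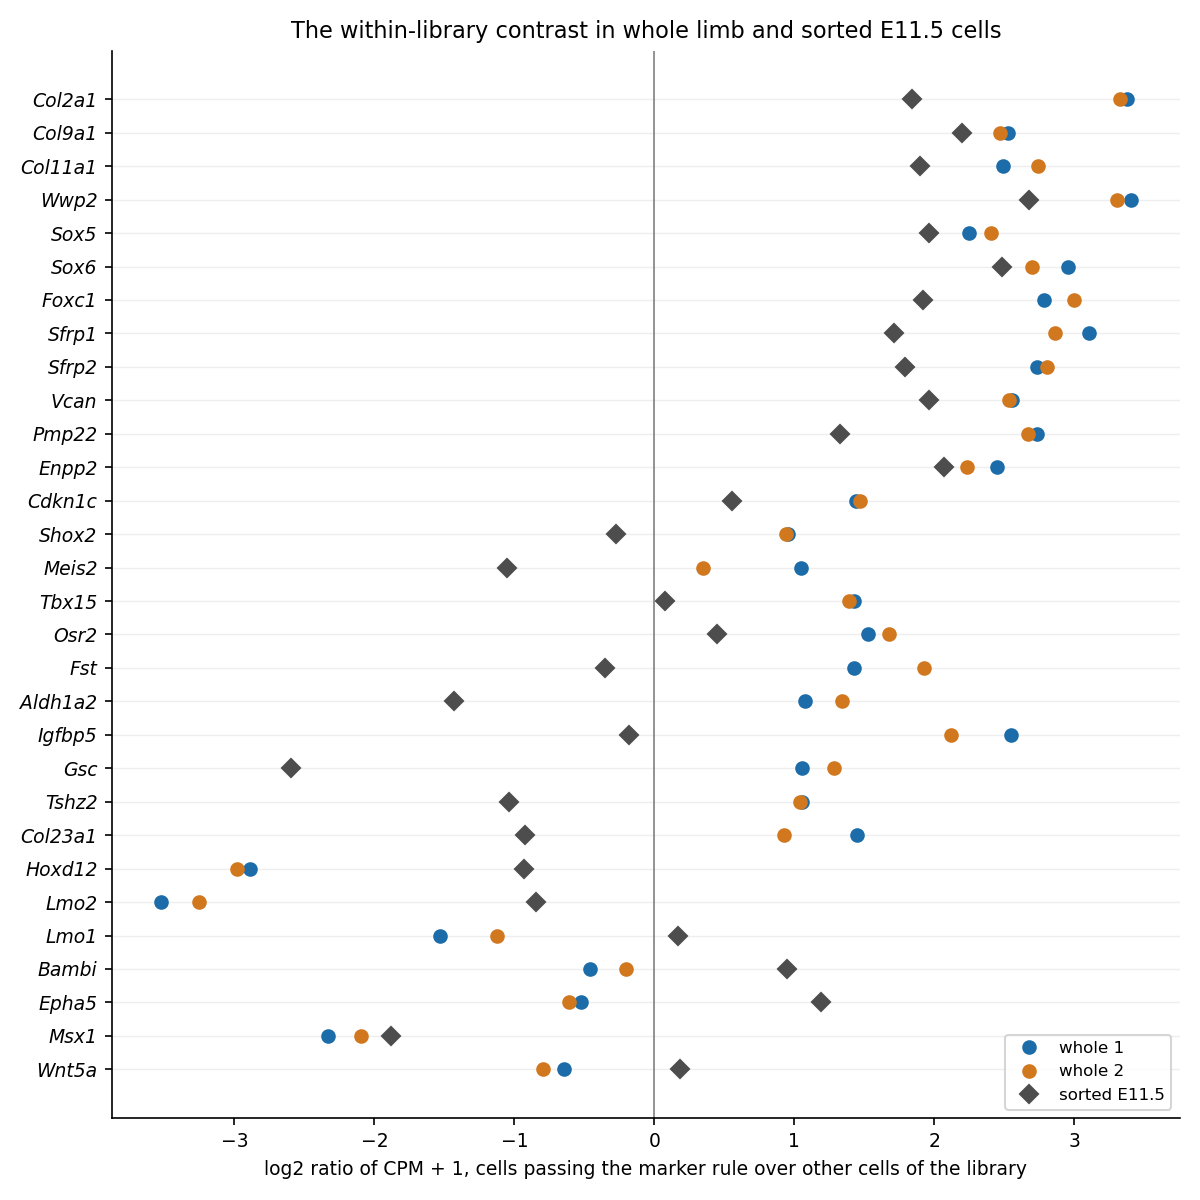
log2 ratio of CPM + 1 between cells that pass the marker rule and the other cells of their library, for 30 genes in whole 1, whole 2 and the sorted E11.5 library. Cartilage genes lie to the right of 0 in all 3 libraries. *Shox2*, *Meis2*, *Gsc*, *Tshz2*, *Aldh1a2*, *Col23a1*, *Fst* and *Igfbp5* lie to the right of 0 in whole limb cells and to the left in sorted cells. *Epha5* lies to the left of 0 in whole limb cells and to the right in sorted cells.

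Matrix genes were set beside the same genes in the sorted libraries of this and later days. *Acan* was at 6.39 and 7.56 CPM in whole limbs and at 6.09, 14.7 and 64.6 CPM in the cells passing the rule at E11.5, E12.5 and E13.5. *Matn1* had 7.99 and 8.50 CPM in whole limbs and no UMI, 0.851 and 153 CPM in those 3 libraries. *Col9a1* was at 530.4 and 542 CPM in whole limbs and at 177, 302 and 567 CPM in the sorted cells, and *Vcan* at 618, 396 and 298 CPM in the latter against 949 and 1015 in whole limbs. Each of these stages is 1 library and the rule takes cells by depth as well as by type, so the values stand side by side with no test.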

How the data were processed

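The authors made the 8 libraries with 10x Genomics 3′ kits and aligned them to a modified mm10 (GRCm38) genome with Cell Ranger (3.0.2 for the sorted and 6.0.1 for the E16.5 distal library, per the file headers; the whole limb headers give none), and deposited raw UMI counts per gene and cell for 28001 features. Cells with at least 3000 UMIs and at most 10% mitochondrial UMIs were kept. The 7 markers, the gene lists and the alternatives were chosen with earlier results of these data known.

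UMIs were summed per library over chondrogenic and other cells and tested with edgeR 4.0.16 (R 4.3.3; TMM, filterByExpr, quasi-likelihood, Benjamini-Hochberg at 0.05) with library as a block. The pairing by library needs no check, since both sums come from the same suspension. The 7 markers counted toward library sizes but were not tested. Cells were also thinned to 3000 UMIs with numpy 2.4.6. Alternatives used DESeq2 1.42.0 and limma 3.58.1. Intervals (scipy 1.17.1) were exact Clopper-Pearson or Poisson at 95%, and the floor was 3 UMIs per library, 2.40 and 2.83 CPM in chondrogenic cells. On simulated data, edgeR recovered 200 of 200 genes changed 4-fold with 0 false calls in the chondrogenic comparison of 13610 genes, and 200 of 200 with 4 false calls in the interaction of 14597. The simulation gave all genes the same spread, as fitted by edgeR, with no library effect, and changed only well counted genes. It therefore does not test the calls of low genes or a spread that differs between genes. Named beyond the lists were the 12 genes with the largest rise and fall (6 for the interaction) that passed in the same direction in both libraries at 50 CPM or more, of which 1 is not reported here. *Snorc* and *Leprel1* were found by older symbols. Scrublet in scanpy 1.11.5 called 5 and 16 whole limb doublets (0.0915% and 0.282%), none chondrogenic, too few for it to have worked, so doublets were not removed. Later sorted stages were used for levels only.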

Additional observations from a re-analysis of the deposited data

Results flagged for a closer look

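For 21 of the named genes the contrast between chondrogenic and other cells differed between the sorted E11.5 library and the whole limb libraries by the edgeR interaction test (adjusted p under 0.05). The difference is given on the log2 scale as sorted minus whole limb.

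It was negative for *Gsc* (-3.79), *Aldh1a2* (-2.76), *Igfbp5* (-2.48), *Col23a1* (-2.12), *Tshz2* (-2.01) and *Fst* (-1.98). In these 6 genes chondrogenic cells were above the others in both whole limb libraries and below them in the sorted library. Against other whole limb cells matched on UMIs *Aldh1a2* was at 0.027 (adjusted p = 0.974, edgeR), and against those without distal gene UMIs at 0.38 (adjusted p = 0.494). The difference was also negative for genes that were higher in chondrogenic cells of all 3 libraries, namely *Col2a1* (-1.44), *Sned1* (-1.42), *Pmp22* (-1.33), *Sfrp1* (-1.19), *Foxc1* (-0.95), *Sfrp2* (-0.89), *Col11a1* (-0.64), *Wwp2* (-0.63) and *Vcan* (-0.49).

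It was positive for *Lmo2* (2.66), *Hoxd12* (2.11), *Epha5* (1.91), *Lmo1* (1.66), *Bambi* (1.39) and *Slc25a33* (1.27). Of these genes only *Epha5* held under both the thinned rule and DESeq2. The distal genes among them were low in the sorted cells, with *Lmo2* at 2.84 against 5.89 CPM and *Hoxd12* at 5.27 against 11 CPM there. The sorted library is a single library of tdTomato+ cells, and its chondrogenic cells were deeper (median 9514 UMIs) than those of whole limbs (5671 and 5562). The part of depth and of the sort in these differences was not tested beyond the thinned rule. That rule was looked up only for the genes with the largest difference in each direction.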

How the results depend on the processing

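The count of 3384 genes became 1443 with DESeq2, 2025 with cells thinned before the sums, 1870 with other cells matched on UMIs, 1868 with at least 5 markers and 1881 with other cells without distal gene UMIs, and in 11 further settings it lay within 1.5 times. The share of calls that were higher was 40.5%, and 52.7% with limma-voom (1481 higher, 1330 lower), 48.9% in matched cells (915 and 955) and 58.8% on library totals (1880 and 1315). The setting without distal gene UMIs and that on library totals were chosen after the data had been seen. Without the replicate block 2769 genes passed. The interaction count of 1084 became 416 without the replicate block, 305 with the rule applied to thinned cells and 125 with DESeq2. The share of chondrogenic cells moved to 1.54% and 1.32% with thinned cells, to 6.90% and 6.56% with at least 3 markers and to 1.501% and 1.197% with at least 5. The cause was not tested.

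The 23 named genes kept their direction in every setting in which they were tested (the distal genes that chose the cells were left out of that setting), and 2 (*Pmaip1* and *Slc25a33*) did not pass without distal gene UMIs. Of the interaction genes, *Lmo2* turned to -5.82 (adjusted p = 0.981, edgeR) under the thinned rule, where *Hoxd12*, *Lmo1* and *Bambi* did not pass, and with DESeq2 *Hoxd12*, *Lmo2*, *Lmo1* and *Slc25a33* did not pass. Leaving out either whole limb library leaves no residual degree of freedom, so those are values with no test, and no direction changed.

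The 5 cartilage collagens were higher under every setting. G2/M genes were 9 lower and 0 higher, but 10 higher and 0 lower in matched cells and 3 higher and 1 lower without distal gene UMIs. They were 10 lower and 0 higher with thinned sums, and 15 lower and 0 higher with the thinned rule. The 169 and 179 chondrogenic cells hold 1058780 and 1251902 UMIs, which limits genes under about 10 CPM.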

Other observations

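Genes of 3 further lists were changed in chondrogenic cells of the whole limb. In the Notch list 2 of 9 genes were higher, 3 lower and 4 did not pass (median -0.48). The receptor gene *Notch1* was at 41.5 and 35.9 CPM against 22.8 and 25.4 (0.59 ± 0.17), and the target *Hes1* at 637 and 560.1 CPM against 409.8 and 413 (0.43 ± 0.053). The ligand gene *Jag1* was at 7.99 and 3.78 CPM against 28.4 and 26.0 (-2.28 ± 0.30), and the target *Hey1* was lower as well (-1.46 ± 0.18). Against other cells without distal gene UMIs none of 7 tested Notch genes passed.

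Of 19 guidance genes 4 were higher, 6 lower and 9 did not pass (median -0.18). The receptor genes *Robo2* (181 and 224 CPM against 61.8 and 66.0, 1.55 ± 0.087) and *Epha7* (130.2 and 124 CPM against 38.8 and 41.7, 1.55 ± 0.11) were higher, as were *Robo1* and *Efnb2*. Neither passed against other cells without distal gene UMIs (adjusted p = 0.918 and 1.00, edgeR), and *Robo1* did not pass against matched cells (adjusted p = 0.309). *Epha3* (-2.51 ± 0.38), *Plxna2*, *Slit2*, *Nrp2*, *Ephb2* and *Efnb1* were lower, but without distal gene UMIs *Epha3* (adjusted p = 0.119), *Plxna2* (adjusted p = 0.101), *Nrp2* (adjusted p = 0.360) and *Ephb2* (adjusted p = 0.367) did not pass in edgeR, and *Robo2* was at 0.80 and *Epha7* at 0.70. Of 17 genes of glycolysis and hypoxia 2 were higher, 6 lower and 9 did not pass (median -0.18). Against matched cells 2 were higher and 3 lower (median 0.069), and without distal gene UMIs 4 were higher and 3 lower (median -0.0084), with *Ldha* turned from lower to higher (0.15, adjusted p = 0.00717, edgeR). The hypoxia targets *Egln3* (2.35 ± 0.39) and *Bnip3* (110.2 and 100.1 CPM against 54.3 and 54.4, 0.85 ± 0.11) were higher, and *Pkm*, an enzyme of the last step of glycolysis, was lower (-0.75 ± 0.051).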
